A study of Mus musculus with 9 samples.

Results

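ATAC-seq finds open chromatin by letting a transposase cut accessible DNA, and the places where cut fragments pile up are called as peaks. In C3H/10T1/2 cells, an established mouse line used as mesenchymal progenitor cells (MPCs), 1403 of 132893 merged peak regions on chromosomes 1 to 19 were open in wild-type (WT) cells and ranked clearly lower in both *Atrx* knockout (KO) clones. These regions were selected on the measured peak strengths themselves. A region belonged to the set when all 3 WT libraries and at least 1 of the 6 KO libraries held a peak in it, and when the lowest WT value exceeded the highest KO value by 10 percentile points or more. The value is the percentile, from 0 to 100, of the peak's fold enrichment among all peaks of the same library, and 0 stands for no peak. The first 2 conditions alone were met by 57169 regions, called eligible below, of which the set is 2.45%.

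The libraries came from 3 lines: WT, KO clone B10 and KO clone G7, with 3 libraries of each. All lines descend from C3H/10T1/2 (CCL-226) and went through CRISPR-Cas9 transfection. The controls received a vector that carries Cas9 and no guide RNA, and the study used 2 guides against *Atrx*, without the labels saying which guide gave which clone. Each KO line is a single clone, and both were set against the same WT libraries, so loss of ATRX and any other difference between this WT line and the clones cannot be told apart. Nothing in the labels shows that the 3 libraries of a line were separate cultures, so every comparison below measures the spread between these libraries, which may be technical.

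ATRX, whose gene lies on the X chromosome, uses ATP to remodel chromatin. With its partner DAXX it places the histone variant H3.3 in the genome, and it is best known for its work at repeats, telomeres and other heterochromatin. In mesenchymal cells, open regions far from genes often hold sites for transcription factors such as AP-1 (dimers of FOS and JUN proteins), RUNX, TEAD and SOX proteins, while open promoters are often rich in CpG. AP-1 sites are short palindromes that are common in the enhancers of fibroblast-like cells.

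The lists held between 74643 and 86650 peaks on chromosomes 1 to 19, and they give no sequencing depth. A missing peak was therefore read as not detected at this depth. A peak lay within 1 kb of a start site of *Atrx* in each of the 9 libraries, at percentiles from 82.5 to 92.6, which says nothing about the protein, since the lists cannot show the edit. Of the 10 mesenchymal marker genes checked, 9 (such as *Col1a1*, *Prrx1* and *Twist1*) had a peak within 1 kb of a start site in all 9 libraries and *Thy1* had one in none. Of the 18 markers of blood, epithelial, endothelial, hepatic and neuronal cells, 10 had one in no library, and *Tek* and *Rbfox3* had one in all 9. Libraries with the same replicate number deviated together across lines, and the size of the set and its AP-1 share are given with and without replicate 1. The test of B10 against G7 was repeated without single libraries but not without a replicate number.

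The sequences below show what stood at the summits, the points of highest signal. They are 151 bases each, 75 either side of the summit of the strongest peak, on the plus strand of GRCm38.p6, the assembly of mm10, and capitals mark the AP-1 letters TGACTCA or their reverse complement TGAGTCA. The 6 regions of largest margin outside annotated UTRs come first, since they carry the clearest difference between WT and KO values. None of these 6 windows held AP-1 letters, although those of *Ago3* and *Polr1d* did within 100 bp of the summit. They lay at chr2:175109990-175110140 (nearest *Gm14399*), chr4:126371638-126371788 (*Ago3*), chr5:39644644-39644794 (*Hs3st1*), chr5:147117044-147117194 (*Polr1d*), chr15:94080037-94080187 (*Adamts20*) and chr3:26064429-26064579 (*Nlgn1*).
Gm14399: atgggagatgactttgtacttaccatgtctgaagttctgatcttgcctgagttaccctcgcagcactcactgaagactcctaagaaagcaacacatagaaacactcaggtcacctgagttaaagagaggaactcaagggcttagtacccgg
Ago3: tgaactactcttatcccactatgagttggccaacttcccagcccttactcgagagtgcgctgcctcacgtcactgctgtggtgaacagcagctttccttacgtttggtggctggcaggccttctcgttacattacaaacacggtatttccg
Hs3st1: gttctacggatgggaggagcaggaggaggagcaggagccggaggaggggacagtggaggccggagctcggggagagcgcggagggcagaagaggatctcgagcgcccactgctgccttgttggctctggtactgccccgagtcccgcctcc
Polr1d: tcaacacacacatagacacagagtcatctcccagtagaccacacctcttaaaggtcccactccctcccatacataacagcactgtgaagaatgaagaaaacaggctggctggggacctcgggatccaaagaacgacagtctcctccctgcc
Adamts20: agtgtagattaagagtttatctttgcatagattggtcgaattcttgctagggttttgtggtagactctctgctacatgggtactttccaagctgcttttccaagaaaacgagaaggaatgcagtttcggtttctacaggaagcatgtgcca
Nlgn1: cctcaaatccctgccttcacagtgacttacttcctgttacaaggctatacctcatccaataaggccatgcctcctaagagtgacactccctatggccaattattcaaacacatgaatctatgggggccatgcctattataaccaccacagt

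The next 5 held AP-1 letters within 75 bases of the summit. They are those of largest margin among such regions on chromosomes other than 18 whose windows lay outside annotated UTRs. They are shown because AP-1 was the motif in which the set differed most from other open regions. This second group was chosen after the values were seen. They lay at chr16:35508646-35508796 (intron, nearest *Pdia5*), chr7:101509401-101509551 (intron, nearest *Pde2a*), chr2:116417829-116417979 (intergenic, nearest *Meis2*), chr6:86219494-86219644 (intron, nearest *Tgfa*) and chr5:34242733-34242883 (intron, nearest *Zfyve28*). The nearest AP-1 match was centred 21 bp from the summit near *Pdia5*, 38 bp near *Pde2a*, 4 bp near *Meis2*, 27 bp near *Tgfa* and 30 bp near *Zfyve28*. The windows near *Meis2* and *Tgfa* each held 2 matches.
Pdia5: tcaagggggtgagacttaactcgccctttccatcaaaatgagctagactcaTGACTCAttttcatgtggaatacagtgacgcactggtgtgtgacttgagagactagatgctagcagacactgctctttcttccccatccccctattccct
Pde2a: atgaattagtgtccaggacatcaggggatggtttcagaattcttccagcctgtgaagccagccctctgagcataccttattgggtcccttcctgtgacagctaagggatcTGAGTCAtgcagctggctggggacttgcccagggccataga
Meis2: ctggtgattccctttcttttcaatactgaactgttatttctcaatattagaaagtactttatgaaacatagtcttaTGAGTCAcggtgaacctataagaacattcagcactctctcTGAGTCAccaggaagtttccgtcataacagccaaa
Tgfa: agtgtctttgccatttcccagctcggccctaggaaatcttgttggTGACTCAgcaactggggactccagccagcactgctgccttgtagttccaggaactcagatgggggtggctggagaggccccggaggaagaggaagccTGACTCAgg
Zfyve28: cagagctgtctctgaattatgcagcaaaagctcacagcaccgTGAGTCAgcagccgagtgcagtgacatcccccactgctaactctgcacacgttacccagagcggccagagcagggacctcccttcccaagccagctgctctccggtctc

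The margin, the lowest WT value minus the highest KO value, chose the regions and is given as a description. It had a median of 18.3 percentile points and reached 85.7. A margin from 10 to 20 was found for 782 regions (55.7%), from 20 to 30 for 344 (24.5%), from 30 to 50 for 230 (16.4%) and from 50 upward for 47 (3.35%). The set has a long edge rather than a gap at its limit. Just inside it were an intronic region nearest *Afap1* and a UTR region nearest *Erich5*, both with a margin of 10.0. Just outside it were regions near *Vps8* (9.99) and *Gm17581* (9.98).

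In WT cells these were regions of ordinary strength. Their median percentile was 62.1, 64 and 63.5 in WT replicates 1, 2 and 3, while that of the other eligible regions was 62.9, 62.4 and 61.6. In the clones the medians were 0, 11.3 and 5.29 in B10 replicates 1, 2 and 3, and 1.14, 14.7 and 11.6 in G7 replicates 1, 2 and 3. Where a B10 or G7 library did hold a peak, its median fold enrichment lay between 5.29 and 5.83, against 10.1 to 11.0 in the WT libraries. The WT values of a region spanned 10.3 points in the median region, the B10 values 12.4 and the G7 values 13.1.

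**Figure D1:**
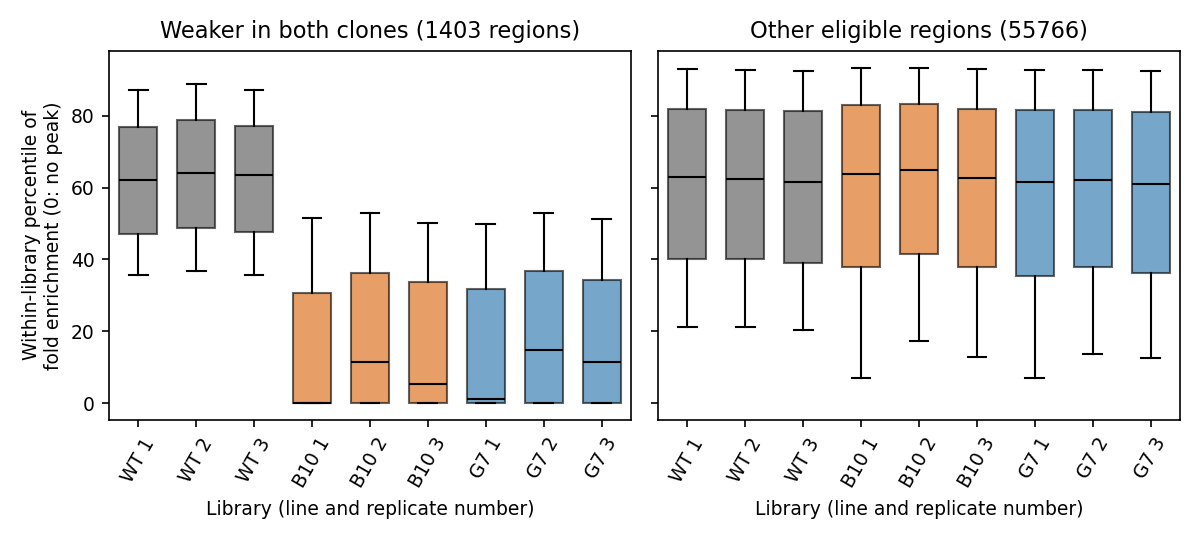
Within-library percentile of fold enrichment (vertical axis, 0 to 100, with 0 for no peak) in each of the 9 libraries (horizontal axis) for the 1403 regions weaker in both clones (left) and the 55766 other eligible regions (right). Boxes span the quartiles with the median as a line and whiskers the 10th to 90th percentiles, and the medians of the weaker regions lie from 62.1 to 64 in WT libraries and from 0 to 14.7 in KO libraries, as the rule requires.

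Many KO values in these regions were peaks that were not called. Of the 8418 values of the KO libraries, 3751 (44.6%) were 0. A peak was called in 1 KO library for 339 regions (24.2%), in all 6 for 316 (22.5%), and in between for the others, with 241 regions at 2 libraries, 216 at 3, 153 at 4 and 138 at 5. Among the other eligible regions, 82.7% had a peak in all 6 KO libraries. In 304 regions no B10 library held a peak and in 273 no G7 library did. When a peak was required in all 9 libraries, the set shrank to the 316 regions.

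The 2 clones were alike in how far these regions fell short of WT. The median difference of line means was 42.0 points for WT minus B10 (quartiles 31.7 and 54.8) and 40.9 for WT minus G7 (30.9 and 53.2). Both clones share the same WT libraries and both had to pass the rule, so this likeness is built in. The B10 mean was above the G7 mean in 678 regions and below it in 725.

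Because the rule used every value, how far the libraries repeat each other was described by holding out a replicate number. The rule was applied to 2 replicate numbers of each line, and the regions it chose were looked up in the number left out. Of 3486 regions chosen from replicates 2 and 3, 2597 (74.5%) had WT above both clones in replicate 1, where 34.2% of all regions with the same peaks did. Of 2295 chosen from replicates 1 and 3, 2057 (89.6%) had WT above both clones in replicate 2, against 31.7%. Of 2095 chosen from replicates 1 and 2, 1869 (89.2%) did so in replicate 3, against 35.2%. The median held-out margin of the chosen regions was 17.0, 20.1 and 24.0 points for replicates 1, 2 and 3, and over all such regions it was -2.25, -3.67 and -2.89. These are shares over regions of the same lines, with no test, and regions are not independent replicates. The chosen sets are not the set described here, and the libraries of a line may be technical repeats. The shares therefore cannot show whether the differences would recur in other cultures or clones.

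The mirrored rule, under which the lowest KO value exceeds the highest WT value by 10 points or more and a peak is present in all 6 KO and at least 1 WT library, was met by 1077 of 51035 regions (2.11%). These stronger regions are used below only as a comparison. The size of the weaker set depended on how libraries were combined. Taking the margin within each replicate number (WT over both clones of the same number, lowest of the 3), which blocks on the pairing of the numbers, gave 2900 regions. Those 2900 had to include all 1403, since a margin taken within numbers cannot be below the margin over all libraries. Without WT replicate 1 the rule gave 3094 regions, without WT replicate 2 it gave 1776 and without WT replicate 3 it gave 1851. Leaving out a single KO library gave 1488 to 1630. Any library left out leaves fewer values to separate, but WT replicate 1 moved the count most, and why was not tested.

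The largest margin belonged to a region at chr2:175109661-175110725, 21.8 kb from the start of *Gm14399*, a predicted gene. Its percentiles were 99.5, 98.5 and 97.1 in WT, 5.04, 11.3 and 0 in B10, and 0 in each G7 library. The WT libraries placed it near the top of their lists, and all KO values lay below all WT values, as in every region of the set. Of the 31-letter words within 100 bp of its summit, 85.4% occurred elsewhere on chromosomes 1 to 19 or X, so reads from near-identical copies could have been split there. The promoter of the neighbouring predicted gene *Gm14393* (chr2:175067428-175068175) was in the set too, with percentiles of 74.7, 88.2 and 76.2 in WT, 16.4, 7.73 and 0 in B10 and 0 in G7, and with 45% of its words found elsewhere.

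Such repeated windows were few. At least 50% of the words recurred in 30 of 1403 regions (2.14%, 95% Wilson interval 1.5 to 3.04), against 1.21% of other eligible regions. Among the named regions they included the promoter of *C130026I21Rik* (chr1:85269774-85270840, 57.3% of words), which had 69.6, 76.3 and 78.4 in WT, 5.04, 4.59 and 0 in B10 and 0 in G7. The promoter of *Naip5* (chr13:100246666-100247415), a sensor of bacterial flagellin in a family of similar genes, had 26.3% of its words elsewhere. Its percentiles were 98.5, 96.6 and 85.9 in WT, 27.4, 0 and 22.6 in B10, and 0 in each G7 library. Values at these 4 loci are uncertain for this reason.

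Other promoters in the set had unique sequence. At the promoter of *Hs3st1* (chr5:39644147-39645485), which encodes a heparan sulfate sulfotransferase, the percentiles were 88.2, 82.8 and 79.2 in WT, 0 in each B10 library, and 0, 4.41 and 0 in G7. The corresponding fold enrichments were 16.0, 15 and 13.8 in WT and 3.01 in the only KO library with a peak. At the promoter of *Olfml2b* (chr1:170644180-170644876), which encodes an olfactomedin-like matrix protein, WT libraries had 94.8, 95 and 95.6, B10 libraries 0, and G7 libraries 0, 0 and 22.0. The 3 WT libraries were closely alike here (SD 0.442). At the promoter of *Spats1* (chr17:45474442-45475190) they had 62.0, 67.7 and 60.9, against 2.54 in B10 replicate 2 and 0 in the other 5 KO libraries. The windows at *Hs3st1*, *Olfml2b* and *Spats1* had GC contents of 67.7%, 71.6% and 61.7% and ratios of observed to expected CpG of 0.681, 0.689 and 0.794.

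Most regions of largest margin were distal. In an intron at chr4:126371380-126372074, nearest to the start of *Ago3*, an Argonaute protein of small-RNA silencing, WT libraries had 86.3, 83.5 and 84.6, B10 libraries 0, and G7 libraries 0, 7.53 and 0. Near *Polr1d*, a subunit of RNA polymerases I and III, a region at chr5:147116803-147117537 had 80.2, 89.5 and 93.9 in WT, 0, 7.73 and 0 in B10, and 0 in G7. Near *Scara3*, a scavenger receptor gene, a region at chr14:65900454-65901165 had 72.2, 84.7 and 81.3 in WT and a peak in 1 KO library, B10 replicate 1 (5.04). In each of these 3 regions the single KO peak was among the weakest of its library, at or below percentile 7.73.

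Regions with AP-1 letters were found among these as well. Near *Pdia5*, which encodes a protein disulfide isomerase, an intronic region at chr16:35508595-35510104 had 74.4, 80.6 and 73.7 in WT, 8.55, 7.73 and 0 in B10, and 8.73, 0 and 0 in G7. Near *Pde2a*, a cyclic nucleotide phosphodiesterase gene, a region at chr7:101509201-101509754 had 81.6, 92.2 and 79.8 in WT, 0 in B10, and 15.4, 11.1 and 0 in G7. KO peaks were called in both clones near *Pdia5* and only in G7 near *Pde2a*. The other 3 of the 12 largest lay near *Adamts20*, a secreted metalloprotease gene (lowest WT 82.6, highest KO 12), *Nlgn1*, a synaptic adhesion gene (89.0 and 20.3), and *Col26a1*, a collagen gene (69.2 and 5.76).

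**Figure D2:**
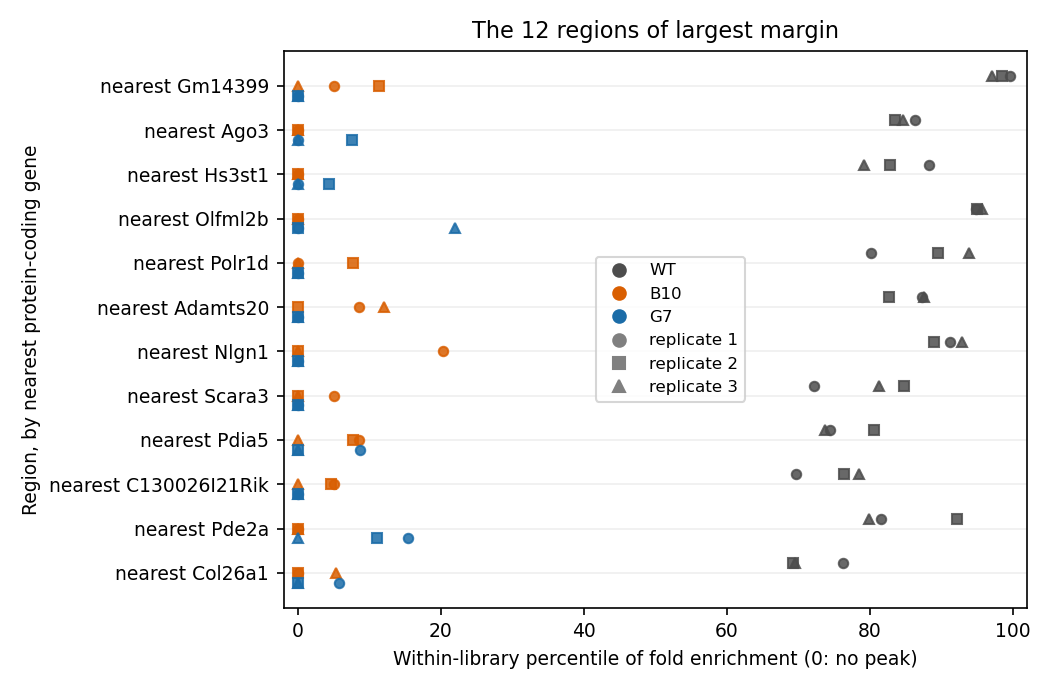
Within-library percentile of fold enrichment (horizontal axis, 0 to 100, with 0 for no peak) in the 9 libraries for the 12 regions of largest margin (vertical axis, named by the nearest protein-coding gene). Colours give the line and shapes the replicate number, with 1 point per library, and each WT point lies at 69.2 or above while each KO point lies at 22.0 or below.

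The set was spread over 1203 nearest genes. Of these, 1051 were nearest to 1 region and 152 to at least 2, and 10 genes had 4 or more. *Tnr*, which encodes the brain matrix protein tenascin-R, had the most, with 6 of its 13 eligible regions spread over 343 kb of chromosome 1. Margins there ran from 12.5 to 53.4. The 6 regions had WT percentiles from 40.5 to 91.7, and 4 of the 6 held AP-1 letters. At chr1:159832852-159833636, the one of largest margin, WT libraries had 84.0, 91.7 and 71.5, and the only KO peak was in G7 replicate 2 (18.1). B10 libraries held no peak in 5 of the 6 regions, and G7 libraries held peaks in all 3 replicates in the 2 regions of smallest margin.

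*Snap25*, a SNARE gene of synaptic vesicle fusion, had 4 of its 5 eligible regions in the set, 3 with AP-1 letters. Its promoter (chr2:136714034-136714611) had 97, 97.2 and 94.9 in WT, 0 in each B10 library, and 47.9, 0 and 44.8 in G7. *Snap25* was 1 of the 3 neuronal markers checked. Of the others, *Rbfox3* had a peak within 1 kb of a start site in 9 libraries and *Syt1* in 3. *Ccbe1*, a secreted protein gene of lymphatic development, had 5 of its 9 eligible regions in the set. Its promoter (chr18:66291088-66292291) had 95.3, 93.2 and 82.7 in WT, 51.7, 69.6 and 62.1 in B10, and 0, 0 and 18.6 in G7, so here the clones did not overlap and B10 stood between WT and G7.

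*Fry*, a gene of cell polarity, had 5 of its 13 eligible regions in the set, with margins from 18.3 to 37.9 and none was in the stronger set. The largest (chr5:150232904-150233823) was even within WT, at 74.5, 74.3 and 74.7, against 20.3, 18.5 and 22.6 in B10 and 36.3, 28.0 and 0 in G7. *Kirrel3*, an adhesion gene of the nephrin family, had 5 of 33 eligible regions in the set and 1 in the stronger set. Its region of largest margin (chr9:34846342-34847100) had 92.1, 91.8 and 91.4 in WT, 0, 7.73 and 19.2 in B10, and 15.4, 31.1 and 39.7 in G7. None of the 5 near *Kirrel3* held AP-1 letters.

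Regions of the set were more often close to each other than eligible regions at large were to them. Another region of the set lay within 50 kb for 231 of 1403 (16.5%), while one lay that near for 8.39% of the other eligible regions and 8.17% of the stronger ones. The richest 1 Mb windows held 7 regions each, at 150 to 151 Mb of chromosome 5 (27 eligible), 159 to 160 Mb of chromosome 1 (29 eligible) and 24 to 25 Mb of chromosome 7 (53 eligible).

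The share of eligible regions in the set differed between chromosomes. On chromosome 5 it was 4.80% (159 of 3312, 95% Wilson interval 4.12 to 5.58) and on chromosome 14 3.52% (2.85 to 4.34), while on chromosome 19 it was 1.54% (1.07 to 2.21) and on chromosome 6 1.71% (1.31 to 2.23). Each clone's median difference from WT over regions with a peak in all 9 libraries also varied by chromosome. The shift was 0.814 points in B10 and 0.0047 in G7 for chromosome 5, where the share was highest. For chromosome 14 it was 0.736 in B10 and -0.411 in G7, and for chromosome 19, where the share was lowest, 1.86 and 0.537. The 2 chromosomes of highest share had the lowest B10 shifts of the 19. After each library was centred by chromosome, the shares were 4.98% (4.29 to 5.78) on chromosome 5, 3.56% on chromosome 14 and 1.76% on chromosome 19, against 2.66% over all chromosomes. After centring in 5 Mb windows they were 4.92%, 3.43% and 1.70%, against 2.67%. The set then numbered 1523 and 1529 regions, which included 1389 and 1371 of the 1403.

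**Figure D3:**
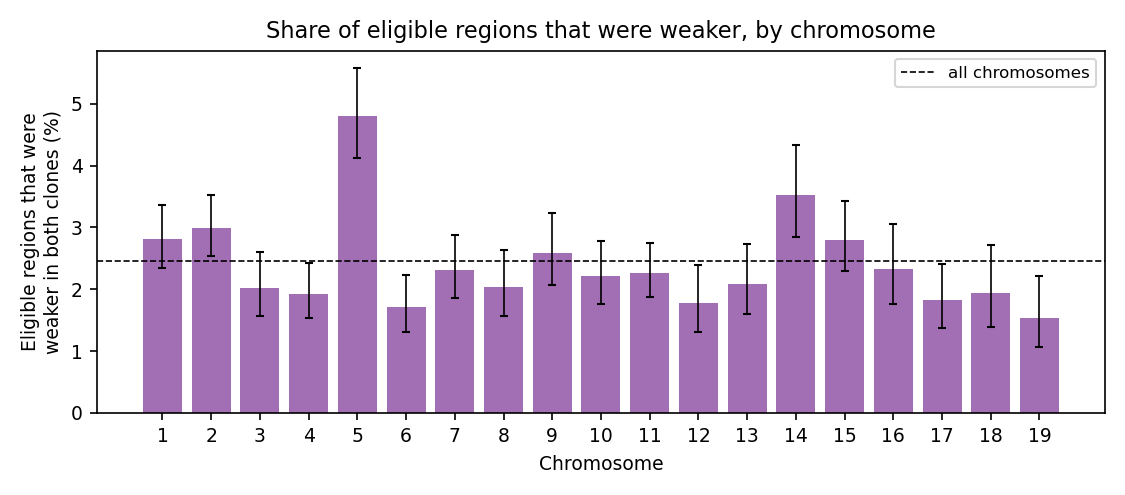
Percent of eligible regions that were weaker in both clones (vertical axis) on chromosomes 1 to 19 (horizontal axis). Error bars are 95% Wilson intervals, which cover counting error only, the dashed line is the value over all chromosomes (2.45%), and chromosome 5 stands highest at 4.80%.

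Position relative to genes was not part of the rule. At promoters, within 3 kb of a protein-coding start site, lay 214 of the 1403 regions (15.3%, interval 13.5 to 17.2), against 25% of the other eligible regions and 12.3% of the stronger ones. Over all merged regions the share was 15.5%, close to that of the set. With a peak in 1 KO library, promoters were 13% of the set and 11.8% of other eligible regions. With a peak in all 6 they were 19.9% and 28.1%. Intergenic sites made up 45% (42.5 to 47.7), against 33.4% of the other eligible and 33.4% of the stronger regions. Introns made up 36.1%, 37.5% and 49.1% of the 3 sets. The weaker regions were thus more often intergenic and the stronger ones more often intronic. The median distance to a start site was 26.2 kb, against 16.5 kb for other eligible and 28.4 kb for the stronger regions. The difference at promoters was largest among regions strong in WT. Where the median WT percentile was over 75, 15.6% of the set (63 of 403, interval 12.4 to 19.5) and 37.4% of other eligible regions were promoters, and from 25 to 50 the shares were 18.5% (14.8 to 22.8) and 15.8%.

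Promoters in the set were less CpG-rich than other eligible promoters, as were those of the stronger set. Their median ratio of observed to expected CpG was 0.412 and their median GC content 57.2%, against 0.736 and 61.7% at the other eligible promoters and 0.466 and 56.2% at the stronger ones. Over all classes the GC contents were close, with medians of 50.7% in the set, 51.2% in other eligible regions and 47.8% in the stronger ones. Regions over 50% repeat-masked made up 3.42% of the set (48 regions, interval 2.59 to 4.51), 3.14% of other eligible regions and 4.83% of the stronger ones.

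Sequence was not part of the rule either, and AP-1 letters were the clearest difference. They occurred within 100 bp of the summit in 432 of 1403 regions (30.8%, 95% Wilson interval 28.4 to 33.3), in 19.4% of other eligible regions, in 16.5% of all merged regions and in 8.64% of the stronger regions (7.10 to 10.5). Regions with a peak in all 3 WT and no KO library, which the rule leaves out, had them in 25.1% (23.0 to 27.3 of 1548). The difference was there in the 3 largest classes. At promoters 15.4% of the set and 7.45% of other eligible regions held AP-1 letters, in introns 35.6% and 24.1%, and in intergenic sites 32.8% and 23.2%. It was there at each WT strength as well, with 29.6%, 25.7%, 31.9% and 33.7% in the set for median WT percentiles up to 25, 50, 75 and 100, against 14.9%, 18.9%, 20.2% and 20.5%. The lowest band has 27 regions, and its interval runs from 15.9 to 48.5%.

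The share did not follow the margin, being 30.2% from 10 to 20 points, 32.8% from 20 to 30 and 30% above 30. It was 30.4% (interval 25.6 to 35.7) in the 316 regions with a peak in all 9 libraries, against 18.3% of other regions with the same peaks. It was 29.5% (24.9 to 34.6) in the 339 with a peak in 1 KO library, against 25.3% (22.0 to 28.9), and those 2 intervals overlap. The matches sat near the summits in every set: the median distance was 27.5 bp in the set, 29.0 bp in other eligible regions and 32.0 bp in the stronger ones. At least 2 matches in 1 window occurred in 39 regions (2.78%), against 2.09% and 0.371%.

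**Figure D4:**
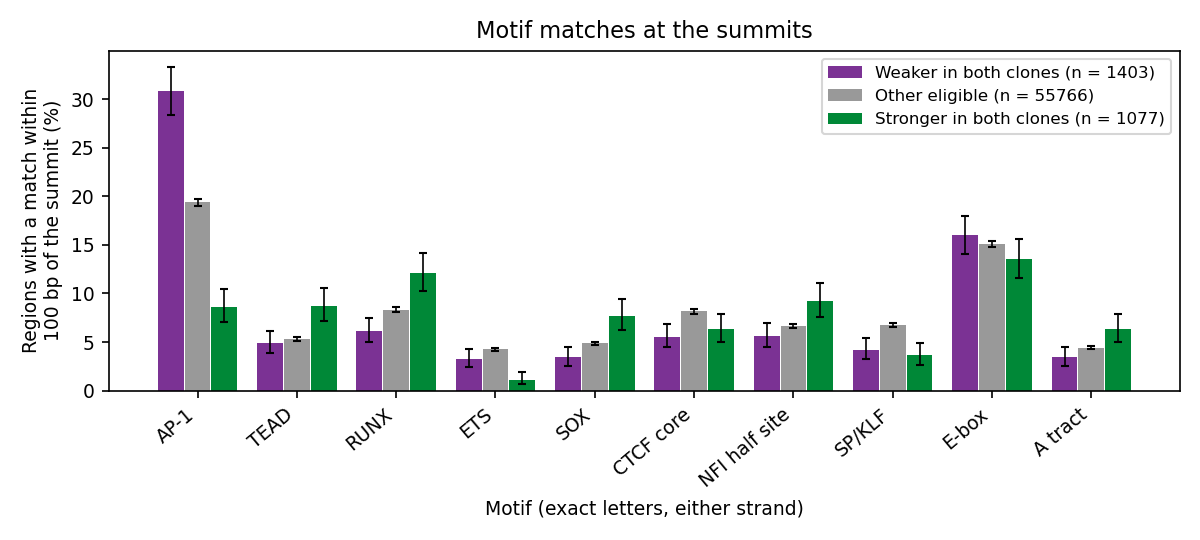
Percent of regions with an exact motif match within 100 bp of the summit (vertical axis) for motifs found in at least 40 regions of the set (horizontal axis), in regions weaker in both clones, other eligible regions and regions stronger in both clones. Error bars are 95% Wilson intervals covering counting error only, and AP-1 stands at 30.8% in the weaker, 19.4% in the other eligible and 8.64% in the stronger regions.

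The other 12 motifs were rarer in the set or close to the background. RUNX letters (TGTGGTT) were found in 6.13% of the set (4.99 to 7.51), 8.35% of other eligible regions and 12.1% of the stronger ones. SOX letters (CCTTTGT) were found in 3.42% (2.59 to 4.51), 4.87% and 7.71%. For both of these the order of the 3 sets was the reverse of that for AP-1. The core of the CTCF site (CCACNAGG) was found in 5.56% (4.48 to 6.88) against 8.15%, SP/KLF letters (CCCCGCCC) in 4.21% (3.27 to 5.39) against 6.77%, and TEAD letters (CATTCCA) in 4.92% (3.90 to 6.18) against 5.29%, with the last within counting error. A match is a run of letters and not a measured binding site.

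The AP-1 share moved with the libraries used. In the eligible regions with AP-1 letters, replicate 1 libraries had lower values in every line: medians of 57.2, 67.3 and 64.6 in WT replicates 1, 2 and 3, 52.7, 62.1 and 57.7 in B10, and 47.9, 62.2 and 57.6 in G7. Without the letters the medians were 64.2, 61.1 and 61.0 in WT. Without WT replicate 1, 43.0% of 3094 regions held AP-1 letters (41.2 to 44.7), against 19.9% of other eligible regions and 7.01% of stronger ones. Without WT replicate 2 or 3 the share was 27.2% and 28.0%. With replicate 1 of every line left out it was 39.4% of 3486 regions (37.8 to 41.1), against 20% of other eligible and 9.89% of stronger ones. Within each replicate number alone the order of the 3 sets was the same. From replicate 1 alone, AP-1 letters were in 26.8% of 7861 weaker regions (25.8 to 27.8), 15.1% of other eligible and 10.2% of stronger ones. From replicate 2 alone the shares were 34.4%, 19% and 12.2%, and from replicate 3 alone 34.9%, 18.1% and 11.7%. With margins taken within replicate numbers, the block on the pairing, the share was 36.1% of 2900 regions.

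**Figure D5:**
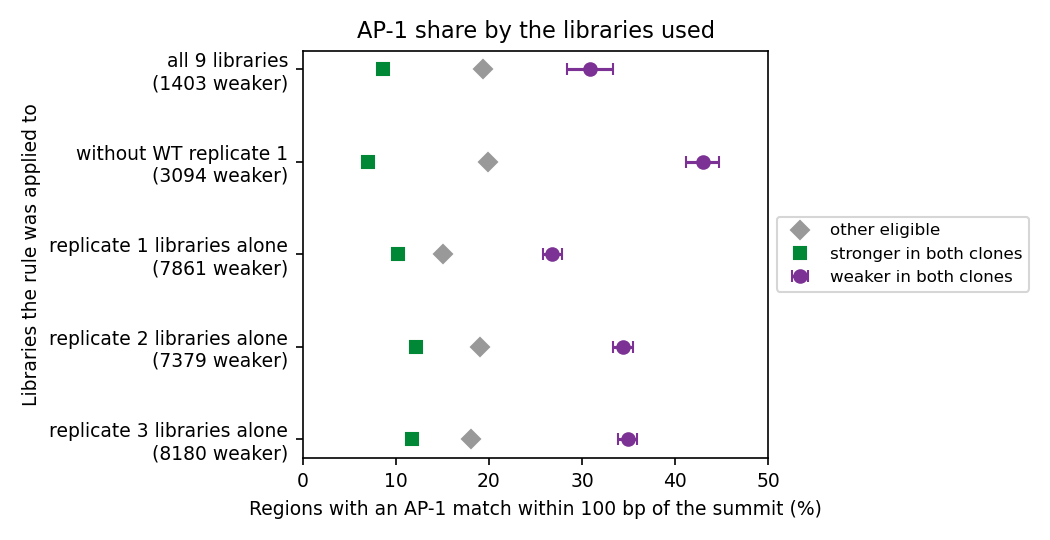
Percent of regions with AP-1 letters within 100 bp of the summit (horizontal axis) when the rule was applied to different libraries (vertical axis, with the number of weaker regions each gave). Circles are regions weaker in both clones with 95% Wilson intervals, diamonds other eligible regions and squares regions stronger in both clones, and in each case the circle lies furthest right, from 26.8% to 43.0%.

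Genes of the pathways and lineages of these cells were covered by 14 lists, and each region was assigned to whichever protein-coding gene started closest to it. No list had a share of its eligible regions in the set whose Wilson interval lay above 2.45%, and that of the TGF-beta and BMP list lay just below it. Counts in the stronger set are given without a share, since regions eligible for the mirrored rule were not counted per list. Of 242 eligible regions at growth factors and their receptors, 8 (3.31%, interval 1.68 to 6.39) were in the set and 5 in the stronger set. They lay near *Tgfa*, *Igfbp5*, *Spry2*, *Fgfr2*, *Igfbp7* and *Pdgfa*. In the intronic region near *Tgfa* (chr6:86219289-86219956), a ligand of the EGF receptor, WT libraries had 80.4, 93.9 and 92.2, B10 libraries 0, and G7 libraries 21.9, 0 and 0. Of 265 regions at Wnt genes 6 were in the set (2.26%), the largest near the receptor *Fzd2* (lowest WT 45.4, highest KO 22.6), and of 359 at TGF-beta and BMP genes 3 (0.836%, 0.285 to 2.43), the largest near *Ltbp1*, which anchors latent TGF-beta (36.0 and 12).

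For structural and Hippo pathway genes the shares were below 2.45% with intervals that included it. Collagen and matrix genes had 5 of 327 (1.53%, 0.655 to 3.53), with the promoter of *Col5a3* (chr9:20814643-20815474), a fibrillar collagen gene, at 75.6, 73.6 and 69.9 in WT, 0, 13.2 and 0 in B10, and 4.54, 33.0 and 26.3 in G7. Actin and focal adhesion genes had 2 of 186 (1.08%, 0.295 to 3.84), the largest an intronic region nearest the adhesion adaptor *Pxn* (lowest WT 33.6, highest KO 6.40). Hippo pathway genes had 2 of 181 (1.10%, 0.304 to 3.94), the largest near *Vgll3*, a cofactor of TEAD proteins, whose WT values ranged widely (41.1, 89.8 and 75.7).

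The shares of lineage genes lay on both sides of 2.45%, and each of their intervals included it. Cartilage genes had 3 of 175 in the set (1.71%) and 12 in the stronger set, and adipocyte genes 2 of 136 (1.47%) and 4. Bone genes had 2 of 85 (2.35%) and 2, muscle genes 3 of 82 (3.66%) and 4, and mesenchymal progenitor markers 2 of 112 (1.79%) and 3. The stronger counts come from other eligible regions, those of the mirrored rule (2.11% of 51035 over all genes), so they cannot be divided by the numbers given here. The cartilage region of largest margin, an intronic one nearest the link protein gene *Hapln1* (chr13:89542352-89543429), had 58.4, 77.5 and 82.9 in WT, 32.6, 23.2 and 24.9 in B10, and 26.7, 29.8 and 26.1 in G7. Its margin turned from 25.8 to -1.64 when the −log10 q-value was ranked in place of the fold enrichment. The others were near *Lep* (lowest WT 46.0, highest KO 21.4), *Msx2* (44.7 and 28.6), *Pax7* (79.9 and 60.3) and *Twist2* (78.2 and 53.8). Near *Pax7*, the regulator of muscle stem cells, the 3 B10 libraries had 44.8, 44.6 and 60.3 and the 3 G7 libraries 0. AP-1 factor genes themselves had 1 of 104, at the promoter of *Batf2* (39.4, 42.3 and 56.0 in WT, 0, 0 and 8.44 in B10, 15.4, 14.7 and 23.0 in G7). Cell cycle and p53 genes had 0 of 105 and interferon response genes 0 of 34, with Wilson upper bounds of 3.53% and 10.2%.

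The rule did not compare the clones with each other, so B10 was tested against G7. It did use the same values, limits those of both clones from above and favours regions with little spread within a line. Shares of the set given beside those of all tested regions are therefore not free of the rule. Of the 46449 regions with a peak in all 9 libraries, limma on the percentile values with Benjamini-Hochberg adjustment called 0.928% higher and 0.73% lower in B10. The set held 316 of them, of which 4 (1.27%) were higher and 3 (0.949%) lower in B10. With the replicate number as a block, which uses the pairing, 8 of the set (2.53%) were higher and 11 (3.48%) lower, against 2.80% and 1.71% of all regions tested. The lower calls were thus a larger share of the set than of all regions under the block, and the higher calls were not. Without the block both shares of the percentile fit lay close to those of all regions. On log2 fold enrichment, also without the block, 3 (0.949%) were higher and 8 (2.53%) lower, against 0.743% and 0.997%. The difference in lower calls thus rests on few calls, and its size depended on the fit. At an unadjusted limma p under 0.05 in the percentile fit without the block, 35 (11.1%) were higher and 35 (11.1%) lower, against 8.96% and 5.05%. When only 1 library of each line had to hold a peak, 826 regions of the set could be tested, of which 7 (0.847%) were higher and 5 (0.605%) lower, against 0.685% and 0.468% of all 71811. The values near *Tnr*, *Ccbe1*, *Snap25* and *Pax7* given above, where a clone lacked peaks, are descriptions without a test.

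The 3 called regions of largest difference were these. Near *Tacc1*, a centrosomal protein gene, at chr8:25342846-25343949, B10 libraries had 63.4, 68.9 and 51.7 and G7 libraries 24.1, 6.07 and 23.8, below 87.1, 84.8 and 80.5 in WT. B10 was 43.3 points above G7 (SE 6.46, limma adjusted p = 0.0157). At the promoter of *Map2k2* (chr10:81128899-81130086), which encodes the ERK pathway kinase MEK2, the order was the reverse, with 21.3, 17.6 and 23.6 in B10, 51.6, 54.1 and 57.2 in G7, and 74.6, 71.3 and 73.9 in WT. B10 was lower than G7 by a fitted difference of -33.5 points (SE 4.07, limma adjusted p = 0.00723). At the promoter of *Spp1* (chr5:104432866-104433322), which encodes osteopontin of bone matrix, B10 had 1.80, 2.64 and 17.1, G7 30.1, 38.9 and 32.5, and WT 52.1, 53.1 and 59.7, a fitted difference of -26.6 points (SE 5.12, limma adjusted p = 0.039). In all 3 regions the libraries of the 2 clones did not overlap, which the choice of the largest called differences favours and which is no further support. The call at *Map2k2* held without any single library. That at *Tacc1* was lost without B10 replicate 1, B10 replicate 2 or G7 replicate 3 (limma adjusted p up to 0.0629), and that at *Spp1* without each single library other than WT replicate 1 and B10 replicate 3 (limma adjusted p up to 0.143).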

How the data were processed

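The authors ran ATAC-seq on 9 libraries, checked reads with Rfastp, aligned read pairs to mm10 with Rsubread and called peaks per replicate with MACS2 in BAMPE mode. The MACS2 version is not given in the sources used here. The peak names in the lists contain the words "with input", but what served as input, and so what the fold enrichment is taken against, is not given there. The methods speak both of duplicates and of 3 replicates, and 3 lists per line were analysed. The deposited lists give a fold enrichment (a ratio to background) and the authors' −log10 q-value for each peak. They hold no counts, so depth is unknown and no interval covers it.

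Peaks were merged where they overlapped or touched, and fold enrichments were turned into within-library percentiles (pandas 2.3.3). Ties share a mean rank, so low values recur. Regions were annotated with GENCODE M21 on GRCm38.p6, within which every peak ended. The summit is that of the highest-ranking peak. Motifs were exact letters on either strand within 100 bp. Repeated sequence was measured by 31-letter words of that window. B10 and G7 were compared with limma 3.58.1 (trend, R 4.3.3), tested on simulated data. Shares carry 95% Wilson intervals for counting error only, and no test was run of WT against the clones, the contrast the rule used. The test of B10 against G7 took the same KO values, which the rule limits from above in both clones.

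Deviations from line means of same-numbered libraries correlated at 0.237 to 0.592 over regions with a peak in all 9 libraries, and those of other numbers at -0.482 to 0.243. The replicate numbers from the labels were therefore taken as pairs. Replicate 1 stood apart: with another number it correlated at -0.482 to -0.297. Replicates 2 and 3 correlated with each other at 0.167 to 0.243, close to the 0.237 to 0.301 within replicate 3, so these 2 numbers were barely told apart. Deviations from a line mean sum to 0 within a line, which pushes correlations of other numbers down.

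The regions, lists and tests were chosen with earlier results of these data known. Named regions are the 12 of largest margin, the 6 such promoters, the 5 genes nearest to most regions, 2 at each side of the limit, the largest of each list and the 3 largest called differences between clones. Alternatives are named in the closing section.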

Additional observations from a re-analysis of the deposited data

Results flagged for a closer look

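Among the 4 higher and 3 lower calls in the set, the 3 regions of largest difference are flagged. There the effects of the clones against WT differed by the limma test of B10 against G7. The B10 minus G7 difference was 43.3 percentile points near *Tacc1*, where G7 was the weaker clone. It was -33.5 near *Map2k2* and -26.6 near *Spp1*, where B10 was the weaker clone. Each region has a peak in all 9 libraries. The call at *Map2k2* held without any single library, while that at *Tacc1* was lost in 3 of the 9 fits without a library and that at *Spp1* in 7.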

How the results depend on the processing

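The size of the set moved with the rule: margins of 5 and 20 gave 2346 and 621 regions, and a peak in all 9 libraries 316. Leaving out a library or a replicate number gave 1488 to 3486, with 11.1 to 15% at promoters and 27.2 to 43.0% with AP-1 letters. Replicates 1, 2 and 3 alone, an alternative chosen after seeing the data, gave 7861, 7379 and 8180 regions, with 10.1%, 10.1% and 10.2% at promoters and 26.8%, 34.4% and 34.9% with AP-1 letters. Promoters made up 17.9% with −log10 q-values ranked, 19.9% with a peak in all 9 libraries and 9.84% within 1 kb (other eligible regions 19.8%). AP-1 shares were 22.8% within 50 bp (other 13.8%) and 39.6% over whole regions (other 31.9%). The replicate block on the paired numbers gave 2900 regions, 12% promoters, 36.1% AP-1, and 8 higher and 11 lower in B10 (2.53% and 3.48% of the set, 2.80% and 1.71% of all tested). With 1 library per line required, 7 regions were called higher in B10 (0.847% of the set's tested regions, 0.685% of all tested) and 5 lower (0.605% and 0.468%). On log2 fold enrichment 3 were higher (0.949% and 0.743%) and 8 lower (2.53% and 0.997%). Without single libraries, 0 to 3 were higher (0 to 0.949%, against 0.187 to 1.1% of all tested). In those fits 1 to 4 were lower (0.316 to 1.27%, against 0.138 to 0.807%). Of 228 alternative margins of 57 named values, 227 stayed above 0, and that of *Hapln1* turned to -1.64 with −log10 q-values. The 57 margins under the replicate block could not fall, since that block can only raise a margin or leave it. All named regions of the set were also chosen on these same values, so the count is a description and no support. The cause of these moves was not tested. Without windows repeated elsewhere, also chosen after seeing the data, 1373 regions were left. Depth is unknown, so a value of 0 limits only what was detected.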

Other observations

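Chromosome X was outside the rule. Ranked against the chromosomes 1 to 19 of the same library, 20 of its 1197 eligible regions (1.67%) met the same conditions and 32 met the mirrored ones. The largest margin there was 84.1 at the promoter of *Gm15128*, with percentiles of 99.9, 99.9 and 95.7 in WT, 0 in B10 and 0, 0 and 11.6 in G7. The next lay at the promoter of *Capn6*, a calpain-family gene, with 83.0, 66.0 and 56.7 in WT, 0 in B10 and 18.7, 0 and 0 in G7.

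The 1548 regions with a peak in all 3 WT and no KO library were intergenic in 43.2% and at promoters in 14.9%, against 45% and 15.3% of the set. RUNX letters were found in 6.52%, SOX letters in 3.81% and AP-1 letters in 25.1% (interval 23 to 27.3), the last below the 30.8% (28.4 to 33.3) of the set. Their median width was 492 bp, against 678 bp in the set.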
